A study of Zea mays with 12 samples.

Results

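Alternative oxidase, catalase and ferritin were followed in maize (Zea mays) leaves through the names aox1, cat2 and fer1. All probe sets whose platform symbol, RefSeq symbol or RefSeq synonym was one of these names were taken, and 4 probe sets of 4 genes were found among the 17621 tested. LOC542230 was the only match for cat2 and LOC542553 the only match for fer1. The name aox1 matched 2 genes. LOC542073 carries it alone, whereas LOC542074 is listed in RefSeq under both aox1 and aox2, so that its name is not settled, and it is called LOC542074 below. The names were chosen with results of these data in view, and which comparison led to the choice is not recorded. Levels of the 4 probe sets and their differences are therefore given as a description, without p-values.

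Leaves came from the tropical inbred lines S1587-17 (aluminium-sensitive, per the labels) and Cat100-6 (aluminium-tolerant, per the labels), each grown in acid or in control soil, and 3 arrays were made for each of these 4 groups. Acid soil was a dark red latosol of pH 4.1 with 10 mmolc/dm3 of aluminium. Control soil was the same soil limed to pH 5.5 (Ca(OH)2, 0.8 g per kg), in which aluminium was no longer detected. Both soils received the same fertilizer, the acid soil also received calcium as CaCl2, and seedlings germinated for 2 days stayed 3 days in soil. All samples were grown at 26 °C with 16 h of light and 8 h of dark, with 20 seeds per bag. The labels call the arrays biological replicates without saying whether they came from separate soil bags or how many seedlings were pooled, so p-values measure only the spread between these samples. All levels are log2 RMA expression, a scale on which the probes of a set are combined after background correction and normalization between arrays, and 1 unit is a 2-fold change. Levels of different probe sets are not comparable, and only differences between arrays are read.

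These proteins limit oxidative damage in separate compartments. Alternative oxidase sits in the inner mitochondrial membrane and passes electrons from ubiquinol directly to oxygen, which keeps the respiratory chain from becoming over-reduced and from releasing superoxide. Catalase breaks down hydrogen peroxide, mainly in peroxisomes, where photorespiration produces it. In maize leaves cat2 is known from bundle sheath cells and cat3 from the mesophyll. Ferritin stores iron in plastids in a form that cannot take part in making hydroxyl radicals. In maize fer1 is known to respond to iron, and fer2 to abscisic acid.

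Features of the whole set of arrays bear on all values below. Correlations between arrays of the same group were 0.985 to 0.997, except those that involved S1587-17 control soil replicate 3 (0.963 to 0.967). Differences of the chosen probe sets are also shown without this array. Other values are from all arrays unless stated, and some shift without it. For the brighter fer2 probe set, the difference between lines in control soil went from -0.69 to -0.51. The mean of the 9 spiked hybridization controls was 9.71 ± 0.31 in acid and 10.21 ± 0.21 in control soil in Cat100-6, and 10.17 ± 0.01 in acid and 10.26 ± 0.05 in control soil in S1587-17 (SD, n = 3 each). Setting all arrays to the same mean of these controls raised the median acid minus control difference of all probe sets in Cat100-6 to 0.36, against -0.14 on the deposited scale, and small differences in that line changed sign with it. For 4 control genes measured at both transcript ends, the 3′ signal minus the 5′ signal was -0.06 to 0.24 in S1587-17 and 0.48 to 0.63 in Cat100-6. It therefore moved with every gap between the lines given below, and its part in them was not tested. Marker genes of leaf cell types, root and seed are given for their range between arrays. They do not check the leaf label, since levels of different probe sets cannot be compared and the values hold no call of presence. The mean over 7 probe sets of mesophyll genes (pep1, pdk1, mdh6) lay between 10.83 and 11.56 on the 12 arrays, that over 3 bundle sheath probe sets (me1, rbcs1, rca1) between 11.29 and 13.28, that over 2 root probe sets (zrp4, tip2b) between 6.05 and 8.25 and that over 11 seed probe sets between 4.55 and 4.76.

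The alternative oxidase gene aox1 (LOC542073) was lower in S1587-17 than in Cat100-6 in both soils. Its levels were 7.04, 6.98 and 7.09 in acid and 6.86, 6.87 and 7.22 in control soil in S1587-17, against 8.72, 8.61 and 8.71 in acid and 8.82, 8.83 and 9.03 in control soil in Cat100-6. No array of S1587-17 came near any array of Cat100-6, and the lines stood apart by far more than the replicates of a group. S1587-17 minus Cat100-6 was -1.64 ± 0.11 (SE) in acid and -1.91 ± 0.11 in control soil, that is 3.12-fold and 3.76-fold lower in S1587-17. The soil made little difference beside this. In Cat100-6 the 3 acid soil arrays lay below the 3 control soil arrays, with a difference of -0.21 ± 0.11 that turned to 0.28 when arrays were scaled to the hybridization controls. In S1587-17 the soils overlapped (0.05 ± 0.11). In rising order of mean level the groups were S1587-17 control soil (6.98), S1587-17 acid soil (7.04), Cat100-6 acid soil (8.68) and Cat100-6 control soil (8.89), and of the neighbours in this order the first 2 overlapped.

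LOC542074 had the opposite order of lines, at a low signal. It was read at 3.69, 4.09 and 3.98 in acid and 4.03, 4.44 and 3.99 in control soil in S1587-17, and at 3.39, 3.54 and 3.22 in acid and 3.30, 3.16 and 3.55 in control soil in Cat100-6. All S1587-17 arrays exceeded all Cat100-6 arrays, while the soils overlapped within each line. S1587-17 minus Cat100-6 was 0.54 ± 0.16 (SE) in acid and 0.82 ± 0.16 in control soil, or 1.45-fold and 1.76-fold higher in S1587-17. After scaling to the hybridization controls the acid soil value was 0.08. The probe set was among the 40% with the lowest mean over all arrays, a range in which RMA compresses differences, and RMA values hold no call of presence or absence. In falling order of mean level came S1587-17 control soil (4.15), S1587-17 acid soil (3.92), Cat100-6 acid soil (3.39) and Cat100-6 control soil (3.34), and only the middle pair of neighbours did not overlap.

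**Figure D1:**
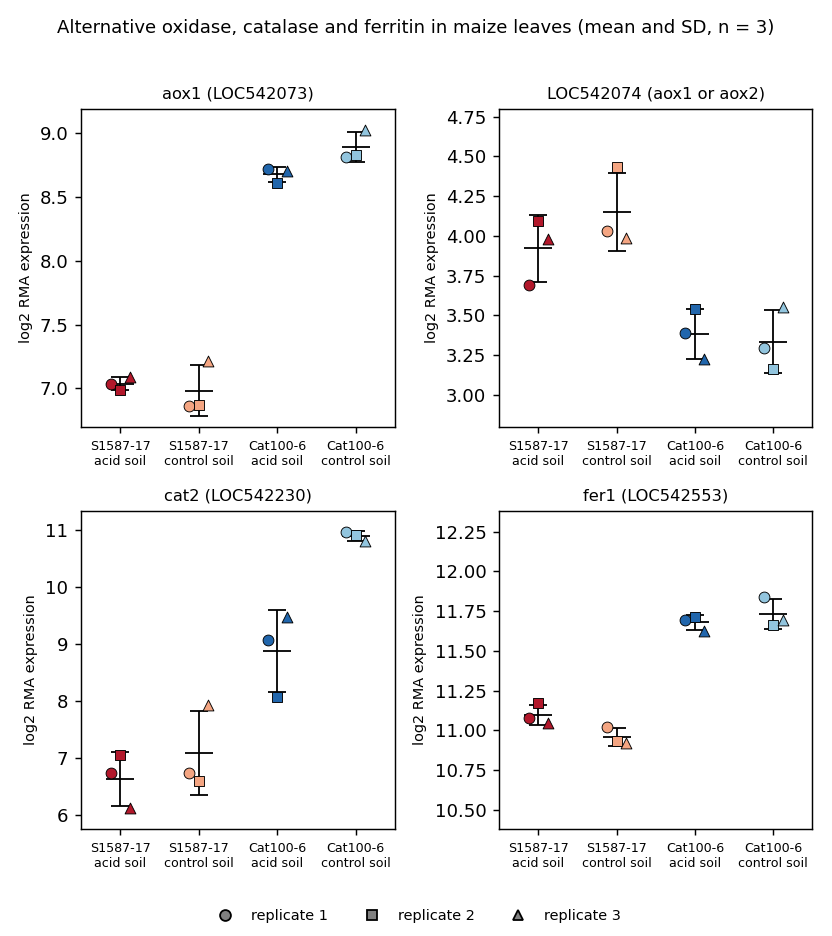
Log2 RMA expression (y axes, each with its own range) of aox1, LOC542074, cat2 and fer1 in S1587-17 and Cat100-6 leaves from acid and control soil; symbols are single arrays, horizontal dashes group means and bars SD (n = 3). In all 4 panels the arrays of one line lie apart from those of the other, and in the cat2 panel the Cat100-6 arrays from acid soil (8.08 to 9.48) also lie below those from control soil (10.81 to 10.97).

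The catalase gene cat2 (LOC542230) had the widest range of the 4 probe sets, between lines and between soils. In S1587-17 it was read at 6.73, 7.05 and 6.12 in acid and at 6.74, 6.59 and 7.94 in control soil. In Cat100-6 it was read at 9.08, 8.08 and 9.48 in acid and at 10.97, 10.91 and 10.81 in control soil. Cat100-6 from control soil stood highest and its replicates lay close together, whereas those of the other groups had SDs of 0.47 to 0.74 (n = 3 each). S1587-17 minus Cat100-6 was -2.24 ± 0.40 (SE) in acid and -3.81 ± 0.40 in control soil, which is 4.74-fold and 14-fold lower in S1587-17. The control soil value exceeded in size those of 99.3% of all probe sets, where the share was 94.6% for aox1, 73.8% for LOC542074 and 72.1% for fer1. The choice of the genes may have used this comparison, so nothing is read from these ranks.

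In Cat100-6 cat2 was 4.04-fold lower in acid than in control soil, a difference of -2.01 ± 0.40 that lay between -2.32 and -1.61 with 1 array left out. In S1587-17 the difference was -0.45 ± 0.40, and the 2 soils overlapped. This value rested on S1587-17 control soil replicate 3, in which cat2 was read at 7.94. Without it the acid minus control difference in S1587-17 was -0.03 ± 0.34. The response of Cat100-6 minus that of S1587-17 was -1.56 ± 0.57 with all arrays and -1.99 ± 0.46 without that array. The rising order of groups was S1587-17 acid soil (6.64), S1587-17 control soil (7.09), Cat100-6 acid soil (8.88) and Cat100-6 control soil (10.90), with overlap between the first 2 only.

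The ferritin gene fer1 (LOC542553) differed between lines by less than aox1 and cat2, with a small spread between replicates. Its levels were 11.08, 11.17 and 11.05 in acid and 11.02, 10.93 and 10.92 in control soil in S1587-17, against 11.70, 11.72 and 11.63 in acid and 11.84, 11.66 and 11.69 in control soil in Cat100-6. The lines did not overlap in either soil. S1587-17 minus Cat100-6 was -0.58 ± 0.09 (SE) in acid and -0.77 ± 0.09 in control soil, or 1.5-fold and 1.71-fold lower in S1587-17. Between soils the values were close. In S1587-17 all 3 acid soil arrays lay above the control soil arrays, by 0.14 ± 0.09. In Cat100-6 the soils overlapped, with a difference of -0.05 ± 0.09 that became 0.45 when arrays were scaled to the hybridization controls and -0.20 after a second quantile normalization. From low to high the groups were S1587-17 control soil (10.96), S1587-17 acid soil (11.10), Cat100-6 acid soil (11.68) and Cat100-6 control soil (11.73), and the last 2 overlapped.

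**Figure D2:**
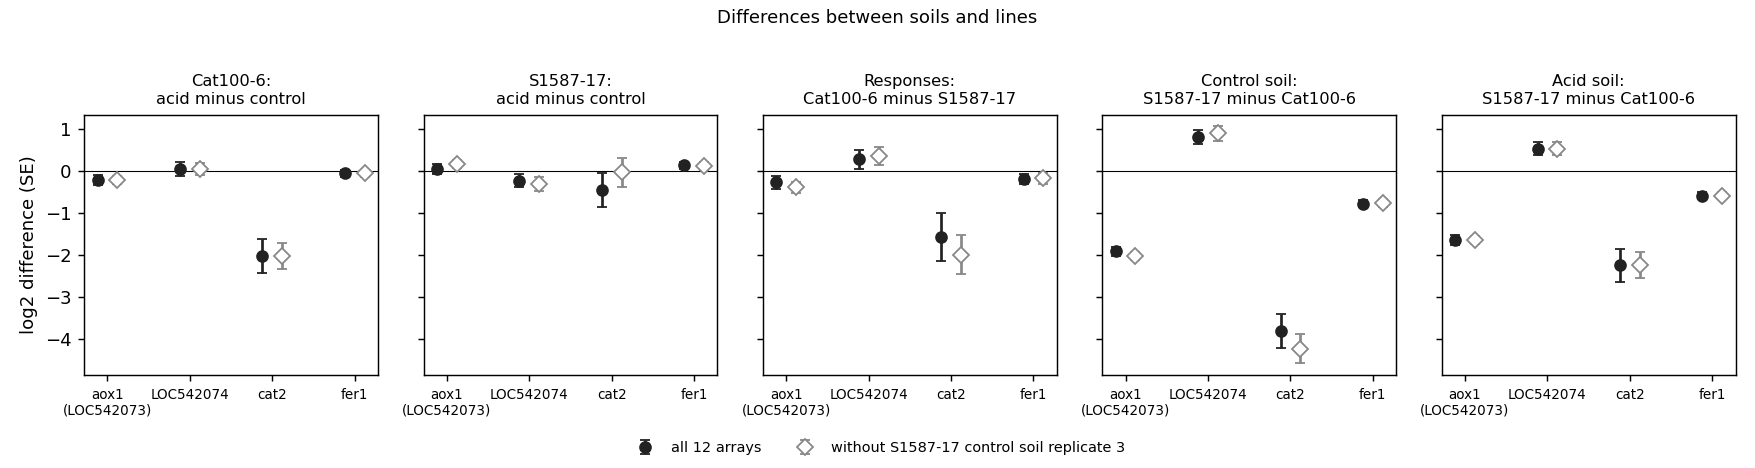
Log2 differences (y axis, bars are SE) of aox1, LOC542074, cat2 and fer1 for the 5 comparisons named above the panels, with all 12 arrays (filled circles) and without S1587-17 control soil replicate 3 (open diamonds). The line differences of aox1, cat2 and fer1 are negative and those of LOC542074 positive in both soils; the cat2 response of S1587-17 is -0.45 with all arrays and -0.03 without that array.

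Large parts of the array differed in the same comparisons, and the counts of these 4 probe sets are set beside that background. With limma and a Benjamini-Hochberg adjusted p under 0.05, 1 probe set was higher and 3 were lower in S1587-17 than in Cat100-6 in control soil, where 51.5% of all probe sets passed and the arrays of the lines did not overlap at 55.5%. In acid soil the same 1 and 3 passed, where 24% of all probe sets did and 45.5% did not overlap. There the 1 higher probe set, LOC542074, no longer passed after a second quantile normalization, on the scale of the hybridization controls or with any 1 of 4 arrays left out. For the response of Cat100-6, cat2 passed as lower and 0 probe sets as higher, against 55% of all probe sets in either direction, 23.5% higher and 31.5% lower. Arrays of the soils were fully separate in this line for 2 of these 4 and for 68.6% of all probe sets. On the scale of the hybridization controls 86.3% of the passing probe sets of that comparison were higher in acid soil, against 42.7% on the deposited scale, and cat2 passed as lower on both. With array medians subtracted 2 of these 4 passed there as lower, where 3584 of all 17621 probe sets rose and 7314 fell. In S1587-17 no probe set of the array passed in limma (0% of all, 613 at an unadjusted p under 0.05), arrays of the soils were fully separate for 1 of these 4 and for 7.66% of all, and 2 probe sets passed with array weights. None of the 4 passed for the difference of responses, where 14.7% of all probe sets passed. Without S1587-17 control soil replicate 3, 2 of them passed there as lower, and 1 did with array weights or without Cat100-6 acid soil replicate 3. Since the choice of the genes may have used any of these comparisons, nothing is read from these counts.

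The other leaf catalase, cat3 (LOC542370), was not among the chosen names and was tested. It came from the gene lists, which were also chosen with earlier results of these data known. The p-values of cat3 and of the other list genes are therefore not independent of that choice. It was lower in S1587-17 than in Cat100-6 in both soils and fell in acid soil in Cat100-6. Its levels were 9.64, 10.12 and 9.57 in acid and 9.81, 9.43 and 9.74 in control soil in S1587-17, against 11.08, 10.45 and 11.28 in acid and 12.09, 11.97 and 11.95 in control soil in Cat100-6. Only the 2 soils of S1587-17 overlapped. S1587-17 minus Cat100-6 was -1.16 ± 0.21 (SE) in acid soil (limma adjusted p = 0.00204) and -2.34 ± 0.21 in control soil (limma adjusted p = 7.68e-06). Acid minus control was -1.07 ± 0.21 in Cat100-6 (limma adjusted p = 0.00193) and 0.12 ± 0.21 in S1587-17 (limma adjusted p = 0.902). The difference of these responses was -1.19 ± 0.30 (limma adjusted p = 0.0272). That last call ended with any 1 of 6 arrays left out (adjusted p between 0.0539 and 0.0686) and on the scale of the hybridization controls (-0.78, adjusted p = 0.0882).

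Some markers of leaf cell types also passed in comparisons in which cat2 differed, against a background of 55% of all probe sets for the response of Cat100-6 and 51.5% between lines in control soil. Of the 3 bundle sheath probe sets, those of NADP-malic enzyme (me1), Rubisco activase (rca1) and the Rubisco small subunit (rbcs1), 3 fell in acid soil in Cat100-6 with a median of -1.62, and 2 were lower in S1587-17 than in Cat100-6 in control soil with a median of -1.34. In acid soil 0 of 3 passed between the lines (median -0.15), where 24% of all probe sets passed and cat2 differed by -2.24. With so few probe sets at that share, nothing is read from this count. The mean over these 3 probe sets was 11.80 to 12.04 in acid and 11.69 to 12.77 in control soil in S1587-17, and 11.29 to 12.57 in acid and 13.24 to 13.28 in control soil in Cat100-6. The array with 12.77 was S1587-17 control soil replicate 3, in which cat2 was also high, and the array with 11.29 was Cat100-6 acid soil replicate 2, the lowest of its group for cat2 and cat3. The mesophyll list had 1 probe set higher and 5 lower of 7 in acid soil in Cat100-6. Between lines, 1 of the 7 was higher and 1 lower in S1587-17 in control soil (median -0.35), and 0 passed in acid soil (median 0.03). The mesophyll mean was 11.08 to 11.26 in acid and 11.25 to 11.47 in control soil in S1587-17, against 10.83 to 11.44 in acid and 11.52 to 11.56 in control soil in Cat100-6. The 2 root probe sets both fell in acid soil in Cat100-6 (median -1.85) and were both lower in S1587-17 in control soil (median -1.57). Between the lines in acid soil 0 of 2 passed (median -0.11), against the same 24% of all probe sets. Both passed as lower for the difference of responses (median -1.46), where 14.7% of all probe sets passed. In that comparison 0 of 3 bundle sheath probe sets (median -1.19) and 0 of 7 mesophyll probe sets (median -0.38) passed. The root mean was 6.05 to 6.35 in acid and 6.32 to 6.93 in control soil in S1587-17, and 6.08 to 6.60 in acid and 7.97 to 8.25 in control soil in Cat100-6. S1587-17 control soil replicate 3 was also the highest of its group for the mesophyll, root and seed means (11.47, 6.93 and 4.66). Cat100-6 acid soil replicate 2 was also the lowest of its group for the mesophyll and root means (10.83 and 6.08), but not for the seed mean (4.64). Of 11 seed probe sets 1 rose and 4 fell in acid soil in Cat100-6. Between lines, 0 were higher and 2 lower in S1587-17 in control soil, and 1 was higher and 1 lower in acid soil. The part of these markers in the cat2 differences was not tested, and in whole leaves fewer cells of a type and less RNA per cell cannot be told apart.

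**Figure D3:**
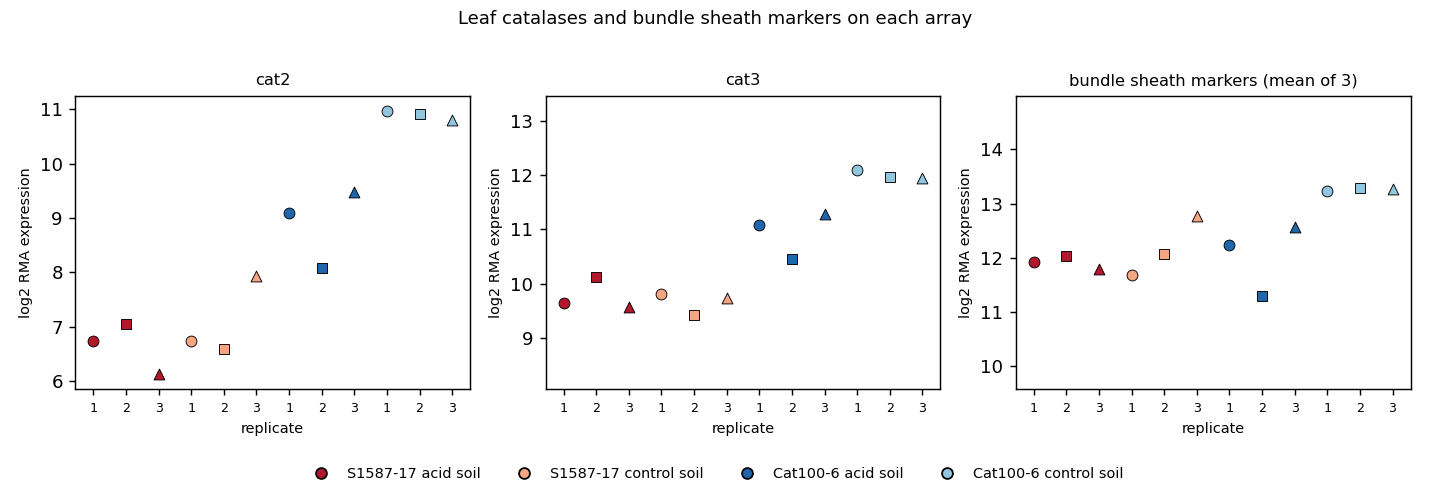
Log2 RMA expression (y axes, all spanning the same number of units) of cat2, cat3 and the mean of the 3 bundle sheath probe sets on each of the 12 arrays, grouped by line and soil (colours) and labelled by replicate on the x axis. cat2 and cat3 are lowest in S1587-17, while the bundle sheath mean of Cat100-6 acid soil (11.29 to 12.57) overlaps that of both S1587-17 groups.

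The remaining genes of the 3 families differed less. For cat1 (LOC542369) 3 probe sets were measured, and they disagreed between lines. The brightest gave S1587-17 minus Cat100-6 differences of -0.14 ± 0.11 (SE) in acid and -0.09 ± 0.11 in control soil, neither of which passed, although on the scale of the hybridization controls the acid soil value was -0.60 and passed (limma adjusted p = 0.0161). The other two gave 0.45 ± 0.13 and 0.46 ± 0.23 in acid soil, of which only the first, a dim probe set, passed in limma (adjusted p = 0.0230), and it turned to -0.00017 on the scale of the hybridization controls. With any 1 of 4 arrays left out that call ended too (adjusted p between 0.0548 and 0.0899), as it did after a second quantile normalization (0.0744). In control soil the other two differed by 0.30 ± 0.13 and 0.46 ± 0.23 and did not pass. The dim one passed there after a second quantile normalization (adjusted p = 0.0461), with array weights (adjusted p = 0.00814) and without either of 2 arrays, and the third without S1587-17 control soil replicate 1 (adjusted p = 0.0171), and in acid soil without replicate 3 of that group (adjusted p = 0.0317). None of the 3 passed for the response to acid soil in either line on the deposited scale. The second ferritin gene, fer2 (LOC542392), was lower in S1587-17 at its bright probe set, by -0.45 ± 0.14 in acid soil (limma adjusted p = 0.0400) and -0.69 ± 0.14 in control soil (limma adjusted p = 0.00206), the same direction as fer1. The acid soil call ended with any 1 of 9 arrays left out (adjusted p between 0.0552 and 0.127), after a second quantile normalization (0.0535) and with array medians subtracted (0.0585). The dim probe set of fer2 gave 0.15 ± 0.12 and -0.17 ± 0.12 in these comparisons and did not pass. It passed for the response of Cat100-6 (-0.40 ± 0.12, limma adjusted p = 0.0166), where the bright one differed by -0.03 ± 0.14, and it turned to 0.09 on the scale of the hybridization controls. The alternative oxidase gene aox3 (LOC542676) was read between 2.73 and 3.17 on all 12 arrays and passed in none of the 5 comparisons (differences between -0.15 and -0.05, lowest limma adjusted p = 0.243). On the scale of the hybridization controls it was lower in S1587-17 in acid soil, by -0.51 (limma adjusted p = 0.0383).

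**Figure D4:**
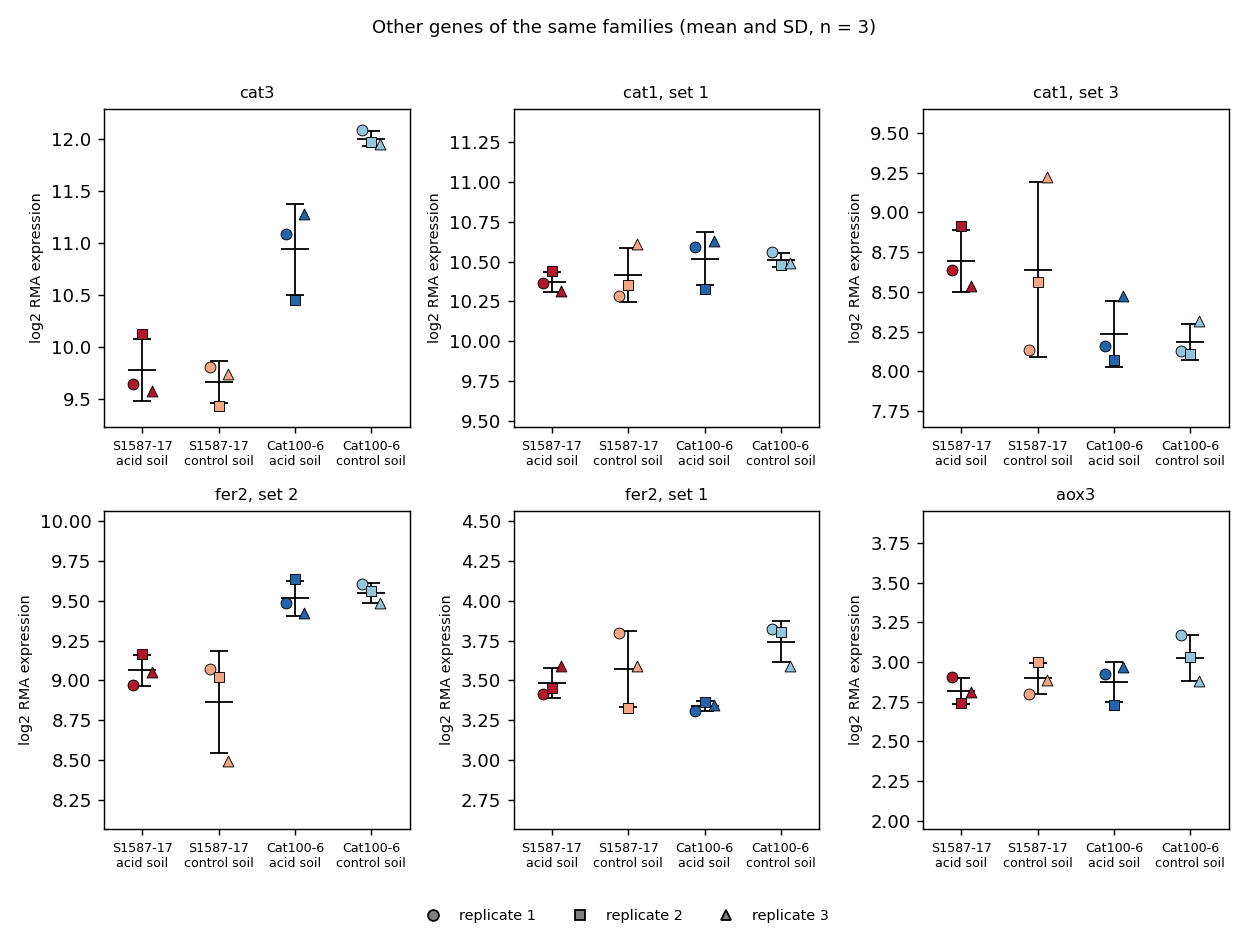
Log2 RMA expression (y axes, each with its own range) of cat3, 2 of the 3 cat1 probe sets, both fer2 probe sets and aox3 in S1587-17 and Cat100-6 leaves from acid and control soil; symbols are single arrays, dashes means and bars SD (n = 3). cat3 separates the lines in both soils and fer2 set 2, its bright probe set, does so at a smaller distance, while cat1 set 1, its brightest probe set, and aox3 overlap between the lines.

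Other genes that handle reactive oxygen and iron were counted from lists of names, 27 probe sets of 20 genes in all, with cat1, cat3, fer2 and aox3 among them. In Cat100-6, 4 of the 27 rose and 5 fell in acid soil, where 23.5% of all probe sets rose and 31.5% fell, and their median difference was -0.15, against -0.14 for all. Between lines, 4 were higher and 5 lower in S1587-17 in control soil (median -0.09, against -0.08 for all, of which 23.2% were higher and 28.2% lower), and 2 were higher and 4 lower in acid soil (0.00, against 0.02 for all, with 10.6% and 13.3%). For the response of S1587-17 none passed in limma (2 of 27 at an unadjusted p under 0.05), and for the difference of responses 1 was higher and 1 lower in Cat100-6, where 8.76% and 5.92% of all probe sets were. On the scale of the hybridization controls 9 rose and 2 fell in Cat100-6, where 6589 of all 17621 probe sets rose and 1050 fell. On that scale 0 were higher and 8 lower in S1587-17 in acid soil, where 528 of all were higher and 6338 lower. The shift of these counts thus went with that of the whole array.

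Of all probe sets 23.5% rose and 31.5% fell in acid soil in Cat100-6. Superoxide dismutases, which turn superoxide into hydrogen peroxide, had 1 of 4 probe sets higher and 0 lower there. This was sod3, the mitochondrial manganese enzyme, which rose by 0.44 ± 0.08 (SE, limma adjusted p = 0.00104). Between lines sod2, a cytosolic copper and zinc enzyme, was lower in S1587-17 at its brighter probe set, by -0.63 ± 0.14 in acid (limma adjusted p = 0.00745) and -0.52 ± 0.14 in control soil (limma adjusted p = 0.00931). Its other probe set differed by -0.01 and -0.09 and did not pass. A second cytosolic gene, sod4a, was lower in S1587-17 in acid soil by -0.89 ± 0.27 (limma adjusted p = 0.0367), a call that ended with any 1 of 8 arrays left out (adjusted p between 0.0512 and 0.125). In control soil sod3 was higher in S1587-17 by 0.21 ± 0.08 (limma adjusted p = 0.0396), a call that ended with any 1 of 10 arrays left out (adjusted p between 0.0502 and 0.114). It also ended on the scale of the hybridization controls (adjusted p = 0.558), in a fit of only the 2 groups (adjusted p = 0.136), once array medians were subtracted (adjusted p = 0.0666) and after a second quantile normalization, where the difference was 0.10 (adjusted p = 0.276).

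Against 23.5% and 31.5% of all probe sets, 1 of 3 of the ascorbate and glutathione genes rose in acid soil in Cat100-6 and 0 fell. This was gsh1, of γ-glutamylcysteine synthetase, the first enzyme of glutathione synthesis, whose level was 8.88 ± 0.10 in acid and 8.17 ± 0.09 in control soil in Cat100-6, and 8.88 ± 0.07 in acid and 8.77 ± 0.06 in control soil in S1587-17 (SD, n = 3 each). The Cat100-6 difference was 0.71 ± 0.09 (SE, limma adjusted p = 0.000220), and the difference between the responses of Cat100-6 and S1587-17 was 0.60 ± 0.13 (limma adjusted p = 0.0155). Cat100-6 leaves from control soil were thus the low group for this gene, and the lines differed there by 0.60 ± 0.09 (limma adjusted p = 0.000280) and by 0.00 in acid soil. The ascorbate peroxidase gene apx2 was higher in S1587-17 in both soils, by 0.50 ± 0.08 in acid (limma adjusted p = 0.00122) and 0.34 ± 0.08 in control soil (limma adjusted p = 0.00507). Both apx2 calls ended on the scale of the hybridization controls (0.04 and 0.29). The glutathione synthetase gene gsh2 passed in none of the line comparisons or for the response of Cat100-6. Neither did the 2 probe sets of the peroxiredoxin and thioredoxin list, of per1 and trh2, pass there.

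Class III peroxidases, secreted enzymes that use hydrogen peroxide at the cell wall, had 1 of 3 probe sets higher and 1 lower in acid soil in Cat100-6. Of all probe sets 23.5% were higher and 31.5% lower there. PER42 fell by 2.95 ± 0.49 (SE, limma adjusted p = 0.000786), to 7.74 ± 1.13 in acid, against 10.70 ± 0.41 in control soil (SD, n = 3 each), and was lower in S1587-17 than in Cat100-6 in control soil by -2.62 ± 0.49 (limma adjusted p = 0.00105). The peroxidase gene pox1 rose by 0.69 ± 0.20 in Cat100-6 (limma adjusted p = 0.0136), a call that ended without Cat100-6 acid soil replicate 2 or control soil replicate 3 (adjusted p = 0.0564 and 0.0503). Beside these same shares of all probe sets, iron genes had 0 of 7 probe sets higher and 2 lower in acid soil in Cat100-6. Both were of nas1, a nicotianamine synthase that makes the iron chelator nicotianamine, whose brightest probe set fell by 0.65 ± 0.14 (limma adjusted p = 0.00281), a call that ended on the scale of the hybridization controls (-0.15). The remaining nas1 probe sets differed by -0.31 and -0.15 on the deposited scale and did not pass. The iron phytosiderophore transporter gene ys1 was higher in S1587-17 in control soil by 2.31 ± 0.75 (limma adjusted p = 0.0234), with levels of 7.66 ± 2.03 in S1587-17 and 5.35 ± 0.11 in Cat100-6 (SD, n = 3 each). Without S1587-17 control soil replicate 3 the difference was 1.32, and the call ended with any 1 of 4 other arrays left out (adjusted p between 0.0544 and 0.0624). It ended too in a fit of only the 2 groups (adjusted p = 0.0770) and with array weights (1.10, adjusted p = 0.0824). The single probe set of the mitochondrial list, atp2 of the ATP synthase β subunit, rose by 0.43 ± 0.10 in Cat100-6 (limma adjusted p = 0.00406). No named probe set matched the photorespiration list.

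**Figure D5:**
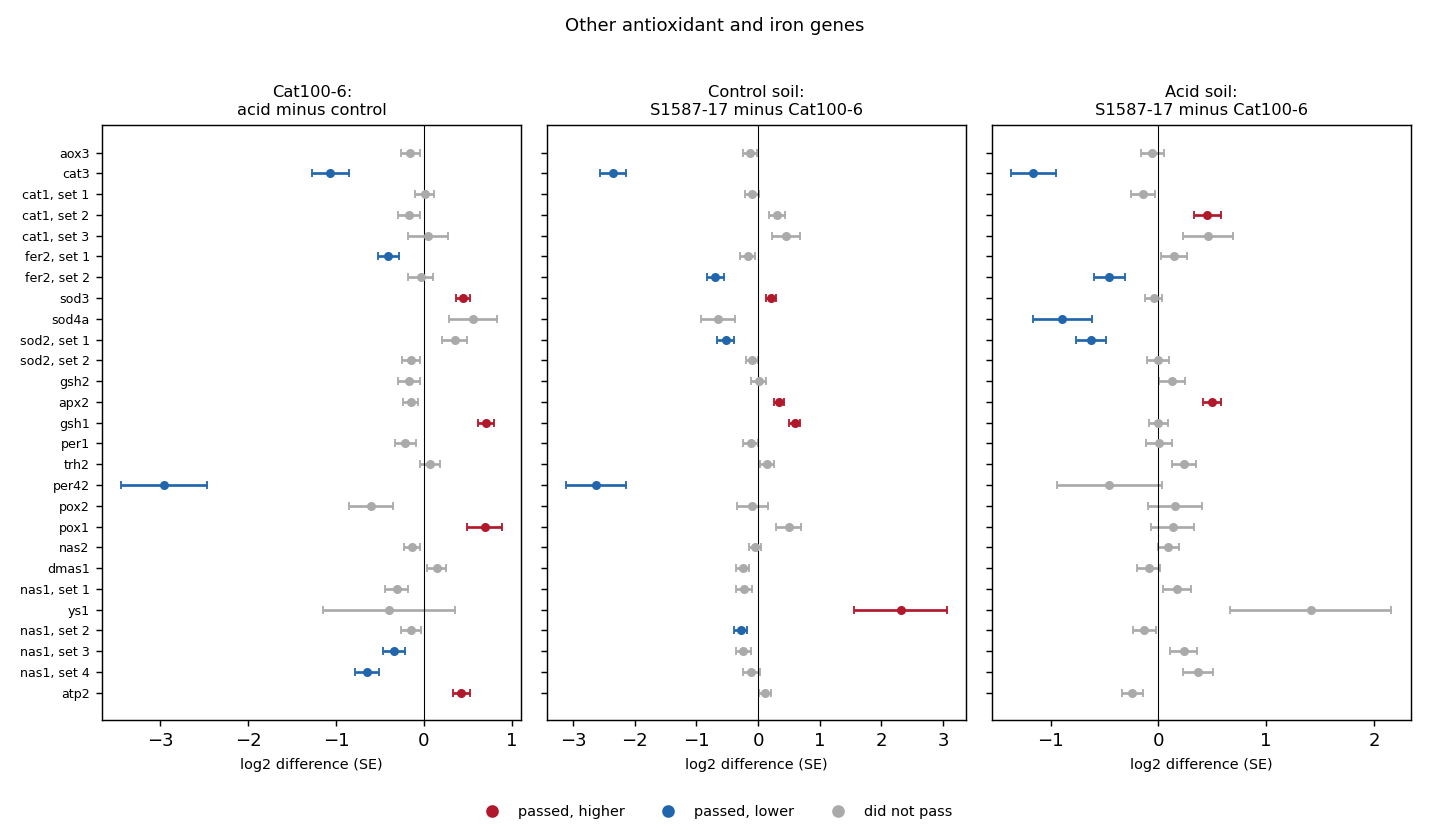
Log2 differences (x axes, bars are SE) of the 27 other probe sets for the response of Cat100-6 and for the lines in control and in acid soil; red points passed as higher and blue points as lower in limma at an adjusted p under 0.05, and grey points did not pass. Differences fall on both sides of 0 in every panel, with cat3 and PER42 the lowest for the response of Cat100-6 (-1.07 and -2.95).

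Named genes with the most similar profiles were found by the root mean square difference of the log2 values over the 12 arrays, after each probe set's own mean was subtracted, among 1276 probe sets with a usable gene name. Nearest to cat2 were an1, an enzyme of gibberellin synthesis (0.39 log2 units), apr (0.49) and the sucrose synthase gene sus2 (0.61). The group means of an1 were 6.66 in acid and 7.26 in control soil in S1587-17 and 8.23 in acid and 10.78 in control soil in Cat100-6, in the same order as those of cat2. Nearest to aox1 were NBP (0.20) and the glutathione transferase genes gst2 (0.22) and gst10 (0.24), whose means were all lower in S1587-17 in both soils. Nearest to LOC542074 were glct1 (0.18), the aquaporin gene PIP2-1 (0.20) and Rad51A2, of DNA repair (0.22). Nearest to fer1 were ALDH10A9, an aldehyde dehydrogenase gene (0.09), homeobox3 (0.10) and glx1 (0.12). These distances depend on the size of a profile as well as its shape, since fer1 itself varied little, and they are given as a description. The genes were picked for near profiles, so like orders of group means follow from the search and are no separate result.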

How the data were processed

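Leaf RNA of 12 samples in 4 groups was hybridized to the Affymetrix GeneChip Maize Genome Array. RMA gave the deposited log2 values, per the submitters' processing notes, with software and settings not given in the sources used here. Precision is limited by the number of arrays. Of 17734 probe sets 113 controls were left out. Exactly 1 platform symbol was held by 1452 probe sets of 1108 genes, of which 1060 genes were found by gene ID in the RefSeq table of the B73 NAM 5.0 assembly. No sequences or coordinates were used.

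limma 3.58.1 (R 4.3.3) was run on all arrays at once, with group means, 8 residual degrees of freedom, empirical Bayes moderation and Benjamini-Hochberg adjustment over all 17621 probe sets. Signed differences run acid minus control and S1587-17 minus Cat100-6. In simulated data for the Cat100-6 response, with 50 of the 17621 probe sets changed at each size, 32% of changes by 0.5, 84% by 1 and 96% by 2 log2 units were recovered. In the real comparison 55% of all probe sets passed, which loosens the adjusted threshold. The simulated noise was also independent between probe sets. These rates therefore do not give the power of the real comparison.

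The genes and the lists were chosen with earlier results of these data known. Gene lists could be matched by symbol and synonym only, because the tables hold no descriptions, and 3 matches in them and 3 among the markers were left out because their names showed another gene. Named are all aox, cat and fer genes, up to 3 passing genes per list and comparison (for a gene with several, the probe set with the highest mean), and the 3 nearest profiles per gene. A passing probe set of gene lists that this rule does not name is counted only. Alternatives were a filter on the 40% dimmest probe sets, 3 other scalings, a fit of 2 groups, a trended and robust variance, array weights, a replicate block, and each array left out. Figures were drawn with matplotlib 3.10.9.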

Additional observations from a re-analysis of the deposited data

Results flagged for a closer look

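The responses to acid soil of Cat100-6 and S1587-17 differed for 2 of the 27 other antioxidant and iron probe sets in limma's test of the difference. Of all probe sets 14.7% passed there, so the count itself does not set these genes apart. For cat3 the response of Cat100-6 minus that of S1587-17 was -1.19 ± 0.30 (SE, adjusted p = 0.0272). Over all alternatives it lay between -1.36 and -0.78, with adjusted p between 0.00845 and 0.0882, and the call ended under 2 settings and with any 1 of 6 arrays left out. For gsh1 the difference was 0.60 ± 0.13 (SE, limma adjusted p = 0.0155), and over all alternatives it lay between 0.53 and 1.00, with adjusted p between 0.00552 and 0.0509, and the call ended under 1 setting. All 3 Cat100-6 arrays from acid soil lay below those from control soil for cat3 and above them for gsh1.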

How the results depend on the processing

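The line differences of aox1, cat2 and fer1 kept their sign under every alternative run, and 3 arrays per group limit the precision. Scaled to the hybridization controls, the difference of aox1 was 0.28 for the Cat100-6 response, 0.13 for the difference of responses and -2.10 between lines in acid soil. That of LOC542074 was 0.55, 0.68 and 0.083, and that of fer1 was 0.45, 0.21 and -1.03, with 0.24 for the S1587-17 response. For fer1 a second quantile normalization gave -0.20 for the Cat100-6 response, -0.34 for the difference of responses and -0.95 between lines in control soil, and medians subtracted gave -0.15 and -0.26 for the first 2. The dim probe set of cat1 between lines in acid soil and that of fer2 for the Cat100-6 response turned to -0.00017 and 0.093 on the hybridization scale. The shifts on the hybridization scale follow that scaling, which moved the median Cat100-6 response of all probe sets to 0.36. Subtracting array medians moved that median to -0.24. For quantile normalization the cause was not tested. Without the 40% dimmest probe sets LOC542074 was not tested.

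For the difference of responses, 5 of the other 27 probe sets passed with array weights and 0 with the replicate block, and 1 to 7 with 1 array left out, against 2. Of all probe sets 7381, 1193 and 967 to 7920 passed there, the highest without S1587-17 control soil replicate 3, against 2588. Between lines in acid soil, 6866 passed on the hybridization scale, against 4223, and 3 to 9 of the 27 with 1 array left out, against 6. For the S1587-17 response 1 passed on the hybridization scale, 2 with array weights and 0 to 1 with 1 array left out. Same-numbered arrays did not deviate together (correlations of -0.29 to 0.16), so the numbers were not read as pairs. A fit of only the 2 groups compared is for the difference of responses the fit of all arrays itself. With the block, which changes no difference here, the calls ended of cat3 and gsh1 for the difference of responses (adjusted p = 0.0639 and 0.0509), of fer2 between lines in acid soil (0.0634) and of sod3 in control soil (0.105), as did that of LOC542074 in acid soil. Among the named genes of the lists, 904 gene-by-setting values stayed on their side of the threshold, whether passing or not, and 18 that did not pass moved by more than the spread between replicates. Another 63 no longer passed, 9 newly passed, and the 2 reversed values above did not pass either.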
